A study of Mus musculus with 4 samples.

Results

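The 9 genes Fasn, Acaca, Acly, Scd1, Scd2, Elovl6, Srebf1, Me1 and Acss2, which build saturated and monounsaturated fatty acids from acetyl-CoA, were followed in B16F10 mouse melanoma cells under 4 growth conditions. Members were the rows of the read count table that carry these gene symbols, and all 9 were found among 24527 symbols. All 9 also belonged to the 12728 genes that averaged 1 CPM or more, which serve here as the background (CPM is the number of reads on a gene relative to a fixed library total, adjusted here with TMM factors so that the libraries can be compared). The study compared cells grown as Spheroid (hanging drops seeded with NIH/3T3 fibroblasts, which are mouse embryo cells), as 2D co-culture with the same fibroblasts, as 2D monoculture and as Tumor. Every library is labelled WT in genotype, and no drug was named for any of them. The tumors grew from B16F10 cells placed under the skin of both flanks of year-old female C57BL/6 mice. For the cultures the methods describe a B16F10 line carrying a green fluorescent protein in the cytoplasm, sold as Linterna, whose green living cells were isolated by flow sorting, in the spheroids from red NIH/3T3 cells. The same methods describe sorted tumor cells, whereas the label of the Tumor library describes a snap frozen tumor, and the day on which spheroids were taken for RNA was not given in the sources used here. Each condition is 1 deposited library, although the methods give 3 for the RNA isolation, so the spread between replicates is unknown for every difference and no p-value could be computed.

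De novo fatty acid synthesis starts in the cytosol, where ATP citrate lyase (Acly) splits exported citrate and acetyl-CoA synthetase (Acss2) activates acetate, both yielding acetyl-CoA. Acetyl-CoA carboxylase (Acaca) turns it into malonyl-CoA, fatty acid synthase (Fasn) joins these units into palmitate with NADPH that malic enzyme (Me1) helps to supply, Elovl6 lengthens palmitate to stearate, and the stearoyl-CoA desaturases Scd1 and Scd2 introduce the double bond that gives oleate. Srebf1 encodes SREBP-1, the transcription factor that activates most genes of this route when insulin signaling is high or unsaturated lipids are scarce, and tumor cells, melanoma among them, often keep the route active while most normal tissues take lipid from the blood.

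The libraries held between 118896900 and 150028663 counted reads, and 3 reads, the limit set by a count of 0, corresponded to at most 0.0262 CPM. Intervals are exact 95% intervals and cover counting error only, since reads amplified by PCR without molecular identifiers are not independent molecules. All 7 melanocyte markers examined (Mlana, Pmel, Tyr, Tyrp1, Dct, Mitf and Sox10) were present in every library, with summed levels of 10549 CPM in Spheroid to 18850 CPM in Tumor. The Tumor library also held markers of other cells: 5 skeletal muscle markers summed to 4599 CPM against at most 12.4 CPM in the cultures, 6 fibroblast markers to 2668 CPM, 6 myeloid markers to 1400 CPM against at most 29.9 CPM, and 5 endothelial markers to 228 CPM against at most 0.411 CPM. In 2D co-culture the 6 fibroblast markers summed to 651 CPM, against 6.49 CPM in 2D monoculture and 12.9 CPM in Spheroid. Most of that sum was Col1a2, with 514 CPM. Thy1, Pdgfra and Dcn had 12.5, 2.51 and 1.68 CPM there, against 0.0211, 0.793 and 0.407 CPM in 2D monoculture. Markers of adipocytes, which themselves make fatty acids, are given with the desaturases.

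Together the 9 genes took 0.384% of all reads in 2D monoculture, 0.485% in 2D co-culture, 0.261% in Spheroid and 0.267% in Tumor. Scd2 was the most abundant member per kilobase of transcript in every library, from 152 CPM per kilobase in Tumor to 510 CPM per kilobase in 2D co-culture. At the other end stood Elovl6 in 2D monoculture, with 7.53 CPM per kilobase, and Acaca in the other 3 libraries, with at most 6.12 CPM per kilobase. The genes did not move as a block. Each library was the highest for at least 2 members. For no member did the counting intervals of conditions next to each other in its order overlap.

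**Figure D1:**
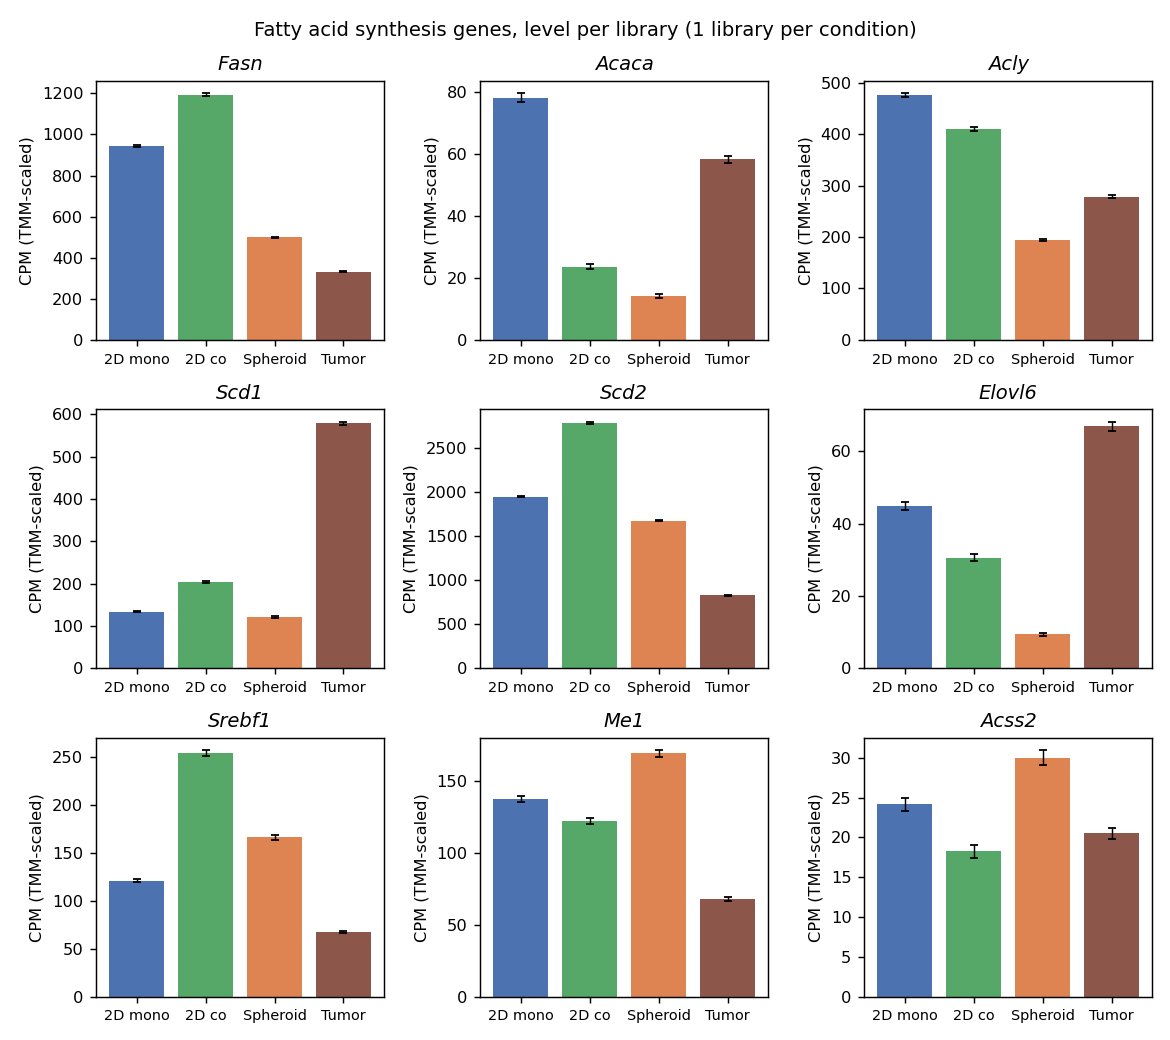
Level of each of the 9 genes in TMM-scaled CPM (vertical axes, each starting at 0) in the 4 libraries, 1 per condition; bars are the level and whiskers the 95% counting interval. Fasn, Scd2 and Srebf1 peak in 2D co-culture, Acaca and Acly in 2D monoculture, Scd1 and Elovl6 in Tumor, and Me1 and Acss2 in Spheroid.

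The acetyl-CoA producers had the narrowest ranges of the set. Acly had 476 CPM in 2D monoculture, 410 CPM in 2D co-culture, 194 CPM in Spheroid and 279 CPM in Tumor. Spheroid was therefore the lowest library for Acly, 2.45-fold under 2D monoculture (log2 ratio -1.30, interval -1.32 to -1.27) and 2.12-fold under 2D co-culture. Acss2, the acetate-using enzyme, had 24.1 CPM in 2D monoculture, 18.2 CPM in 2D co-culture, 30.0 CPM in Spheroid and 20.5 CPM in Tumor. Its highest and lowest libraries were 1.64-fold apart, and no comparison of Acss2 passed 2-fold. Per length, Acly exceeded Acss2 by 13.1-fold in 2D monoculture, 14.9-fold in 2D co-culture, 4.28-fold in Spheroid and 9.01-fold in Tumor, so that the balance between the citrate and the acetate enzyme was most even in Spheroid. Exons of Acss2 overlap those of Ggt7 and Gss on the other strand by 197 and 163 bases, and with the strand used in counting not stated, reads there cannot be told apart; Ggt7 itself ranged from 29.5 CPM in Tumor to 207 CPM in Spheroid.

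Acaca, the committing step of the route, was the member that separated the 2D monoculture from the cultures with fibroblasts most. It had 78.1 CPM (76.7 to 79.6) in 2D monoculture, 23.6 CPM (22.8 to 24.5) in 2D co-culture, 14.3 CPM (13.6 to 14.9) in Spheroid and 58.3 CPM (57.1 to 59.4) in Tumor. The 2D monoculture and the Tumor library were thus within 1.34-fold of each other, and both cultures with NIH/3T3 cells stood apart below them. Against 2D monoculture, Acaca was 5.48-fold lower in Spheroid (log2 ratio -2.45, interval -2.52 to -2.38) and 3.30-fold lower in 2D co-culture (log2 ratio -1.72, interval -1.79 to -1.66). Against Tumor it was 4.09-fold lower in Spheroid and 2.46-fold lower in 2D co-culture. These 4 differences stayed past 2-fold under every alternative, but the correction for GC content and length described below reduced those from 2D monoculture, from -2.37 to -1.35 in Spheroid and from -1.68 to -1.15 in 2D co-culture (1 CPM added). Genes of the same GC and length class had median ratios of -1.02 and -0.54 in these comparisons. Acacb, the mitochondrial-surface carboxylase whose malonyl-CoA restrains fatty acid oxidation, had 40.9 CPM in 2D monoculture, 15.6 CPM in 2D co-culture, 47.2 CPM in Spheroid and 12.8 CPM in Tumor. The ratio of Acaca to Acacb per length was 1.77 in 2D monoculture, 1.39 in 2D co-culture, 0.279 in Spheroid and 4.19 in Tumor, and Spheroid was the one library in which Acacb was the more abundant of both.

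Fasn, the synthase itself, followed another order. It had 944.7 CPM in 2D monoculture, 1194 CPM in 2D co-culture, 499 CPM in Spheroid and 331 CPM in Tumor. Both 2D cultures were the high libraries, and Spheroid lay nearer to Tumor than to either of them. Fasn was 2.85-fold higher in 2D monoculture than in Tumor (log2 ratio 1.51), 3.60-fold higher in 2D co-culture than in Tumor (log2 ratio 1.85, interval 1.83 to 1.86) and 1.51-fold higher in Spheroid than in Tumor. Spheroid was 2.39-fold below 2D co-culture (log2 ratio -1.26, interval -1.27 to -1.24) and 1.89-fold below 2D monoculture. The messages of the synthase and of the carboxylase that feeds it were therefore present in very unequal proportions. Fasn exceeded Acaca per length by 5.38-fold in Tumor, 11.5-fold in 2D monoculture, 33.2-fold in Spheroid and 47.8-fold in 2D co-culture. The correction for GC content and length described below brought both genes closer together in Spheroid against Tumor. Fasn went from 0.59 to -0.69 and Acaca from -1.96 to -1.43 (log2 ratio, 1 CPM added). Me1, the cytosolic malic enzyme, had 138 CPM in 2D monoculture, 122 CPM in 2D co-culture, 169 CPM in Spheroid and 68.2 CPM in Tumor. The Tumor library was the low one, 2.48-fold under Spheroid (log2 ratio 1.31, interval 1.28 to 1.35), and the cultures lay within 1.39-fold of each other. Relative to Fasn per length, Me1 stood at 0.313 in 2D co-culture, 0.445 in 2D monoculture, 0.628 in Tumor and 1.04 in Spheroid.

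Elovl6, the elongase that makes stearate, had the widest range of all members. It had 44.8 CPM (43.7 to 45.9) in 2D monoculture, 30.6 CPM (29.5 to 31.6) in 2D co-culture, 9.37 CPM (8.86 to 9.90) in Spheroid and 66.9 CPM (65.6 to 68.1) in Tumor. Spheroid was far below the other 3 libraries: 7.14-fold under Tumor (log2 ratio -2.84, interval -2.92 to -2.75), 4.78-fold under 2D monoculture and 3.26-fold under 2D co-culture. These 3 differences stayed past 2-fold under every alternative, and the correction for GC content and length reduced them to -1.27, -1.25 and -1.25 (1 CPM added). Relative to Fasn per length, Elovl6 stood at 0.0317 in Spheroid, 0.0432 in 2D co-culture, 0.0801 in 2D monoculture and 0.341 in Tumor. With the same correction, Spheroid against Tumor was -1.27 for Elovl6 and -0.69 for Fasn, from -2.71 and 0.59 (1 CPM added).

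The desaturases differed between culture and Tumor in opposite directions. Scd1 had 134 CPM in 2D monoculture, 203 CPM in 2D co-culture, 121 CPM in Spheroid and 578 CPM in Tumor. Scd2, the paralog that prevails in brain, had 1944 CPM in 2D monoculture, 2785 CPM in 2D co-culture, 1672 CPM in Spheroid and 830 CPM in Tumor. Tumor was thus the highest library for Scd1 and the lowest for Scd2. Scd1 was 4.31-fold higher in Tumor than in 2D monoculture, 2.84-fold higher than in 2D co-culture and 4.79-fold higher than in Spheroid, and these 3 differences stayed past 2-fold under every alternative. Scd2 was 2.34-fold, 3.36-fold and 2.02-fold lower in Tumor than in those libraries, the last of them only just past the limit of 2-fold and within it under 3 of the other scalings, where the log2 ratio with 1 CPM added was 0.65 to 0.88. The difference from 2D monoculture also came within 2-fold with total counts (0.99) and upper quartiles (0.98). Of the reads on both genes, Scd1 held 6.45% (6.36 to 6.54) in 2D monoculture, 6.81% (6.72 to 6.89) in 2D co-culture, 6.74% (6.64 to 6.84) in Spheroid and 41.1% (40.9 to 41.3) in Tumor. The 3 cultures lay close together, and Tumor was apart. This share is taken within a library, so it does not depend on the scaling between libraries.

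**Figure D2:**
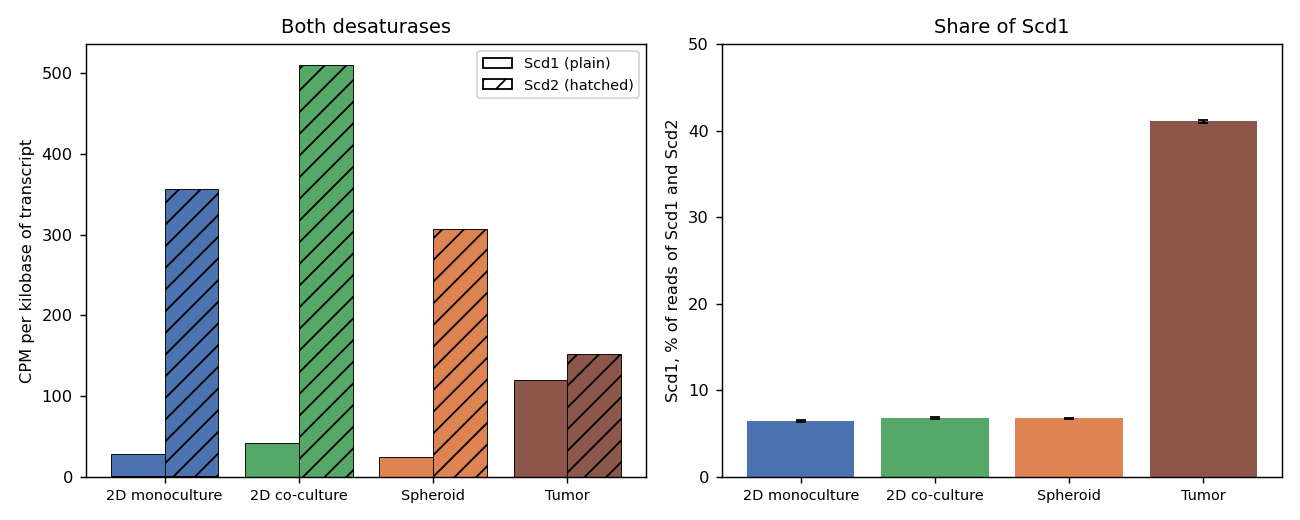
Left, CPM per kilobase of transcript of Scd1 (plain bars) and Scd2 (hatched bars) in the 4 libraries; right, the percentage of the reads of both genes that fell on Scd1, with its 95% counting interval. The share lies between 6.45% and 6.81% in the cultures and at 41.1% in Tumor.

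Both desaturase genes lie on chromosome 19 (GRCm38, the assembly of mm10), Scd2 at chr19:44293674-44306864 on the plus strand and Scd1 at chr19:44394455-44407879 on the minus strand. Their coding sequences are identical at 962 of 1065 aligned bases (90.3%), and the longest stretch without a difference is 147 bases. It is printed here with 25 bases on either side, from the GENCODE M21 transcripts, to show how alike the messages are where reads were assigned to one or the other. Capitals mark the 2 bases that differ, and coding positions are counted from 1 at the start codon.
Scd1, coding positions 498 to 694: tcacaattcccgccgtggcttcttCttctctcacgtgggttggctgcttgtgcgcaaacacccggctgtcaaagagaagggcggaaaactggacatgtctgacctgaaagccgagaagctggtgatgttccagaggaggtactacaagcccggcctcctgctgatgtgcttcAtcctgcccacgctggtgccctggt
Scd2, coding positions 507 to 703: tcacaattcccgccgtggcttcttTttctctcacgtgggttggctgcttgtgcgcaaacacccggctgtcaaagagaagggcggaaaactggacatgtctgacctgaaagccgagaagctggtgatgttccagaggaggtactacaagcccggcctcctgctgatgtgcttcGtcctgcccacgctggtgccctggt
A read that falls wholly inside the shared stretch cannot be assigned to either gene, and the handling of such reads was not stated. The other family members had few reads, with Scd3 at 0.793 to 1.69 CPM and Scd4 at 0.351 to 0.970 CPM, so the large majority of assigned reads were on Scd1 and Scd2.

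In sum, adipocyte markers, like the other cell type markers given above, were highest in Tumor. The 8 genes of the list summed to 1144 CPM in Tumor, and to 136 CPM in 2D monoculture, 144 CPM in 2D co-culture and 223 CPM in Spheroid. In the cultures nearly all of that sum was Adipor2 (135 to 221 CPM), a receptor that many cell types express, while Lep was at 0 in all 3. In Tumor, the defining adipocyte genes Cfd and Adipoq reached 690 and 117 CPM, 7 of the 8 markers were over 2-fold higher than in each culture, and Fabp4, a fatty acid carrier of adipocytes and endothelium, stood at 574 CPM against at most 0.926 CPM in the cultures. Sebaceous and keratinocyte markers stayed low, at 3.04 CPM in sum in Tumor. In bulk RNA, a change in the share of a cell type and a change in RNA per cell cannot be told apart, and the part of adipocyte RNA in the Tumor levels of Scd1, Elovl6 and Acaca was not tested.

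Srebf1, the regulator of the set, had 121 CPM (120 to 123) in 2D monoculture, 255 CPM (252 to 258) in 2D co-culture, 166 CPM (164 to 169) in Spheroid and 67.6 CPM (66.3 to 68.8) in Tumor. It was highest in 2D co-culture, 2.10-fold over 2D monoculture (log2 ratio 1.07, interval 1.04 to 1.10). Srebf1 was the one member past 2-fold upward in that comparison, and this held under every alternative. The 2D co-culture library also held fibroblast markers (651 CPM in sum, of which Col1a2 had 514 CPM). The part of NIH/3T3 RNA in its levels of Srebf1, Fasn and Scd2 was not tested. Against Tumor, Srebf1 was 3.77-fold higher in 2D co-culture, 2.46-fold higher in Spheroid and 1.80-fold higher in 2D monoculture. The correction for GC content and length turned the log2 ratio over Tumor, with 1 CPM added, from 1.29 to -0.56 in Spheroid and from 0.84 to -0.31 in 2D monoculture, and lowered it from 1.90 to 0.72 in 2D co-culture. Its message overlaps that of Rai1 on the other strand by 109 bases, and Rai1 ranged from 54.1 CPM in Tumor to 231 CPM in Spheroid. Fasn exceeded Srebf1 per length by 3.33-fold in 2D monoculture, 2.01-fold in 2D co-culture, 1.28-fold in Spheroid and 2.10-fold in Tumor, so the level of this target did not keep a fixed proportion to that of its regulator.

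Counted over the set, the members split in both directions against Tumor. A gene was counted when it was past 2-fold on log2(CPM + 1), a scale that understates the change of genes of low level. Against Tumor, Spheroid had 3 members higher (Scd2, Srebf1, Me1) and 3 lower (Acaca, Scd1, Elovl6), where 26.8% of all background genes were higher and 27.6% lower. With total count scaling none of the 3 higher members stayed past 2-fold, at 0.65 to 0.95 on this scale. Of background genes, 19.4% were higher with that scaling. In 2D co-culture 3 members were higher than in Tumor (Fasn, Scd2, Srebf1) and 3 lower (Acaca, Scd1, Elovl6), beside 18.8% and 20.9% of background genes. For 2D monoculture against Tumor, 3 were higher (Fasn, Scd2, Me1) and Scd1 alone was lower, beside 18.2% and 14.8%. With 9 members, 3 of 9 is a share near the background for Spheroid and somewhat above it for the 2D cultures. These 3 comparisons share the Tumor library and are not independent of each other.

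Between cultures, the members that passed 2-fold were mostly lower in Spheroid. Against 2D monoculture, Spheroid had 0 members higher, where 11.2% of background genes were, and 3 lower (Acaca, Acly, Elovl6), where 17.9% were. Against 2D co-culture, Spheroid had 0 higher, beside 9.54%, and 3 lower (Fasn, Acly, Elovl6), beside 8.46%. For 2D co-culture against 2D monoculture, Srebf1 was higher and Acaca lower, beside 3.79% and 9.51%. The median log2 ratio of the 9 genes was -0.74 for Spheroid against 2D co-culture, against -0.01 over all background genes, and 7 of the 9 had a ratio under 0. It was -0.22 against 2D monoculture (all genes 0.05). Against Tumor, the medians of the set were 0.53 for Spheroid (all genes 0.08), 0.56 for 2D co-culture (0.11) and 0.77 for 2D monoculture (0.14). Of the 24 member differences past 2-fold over all 6 comparisons, 15 stayed past 2-fold under every scaling, pseudocount and GC alternative tried. Me1 in 2D monoculture against Tumor was at the limit (2.02-fold) and fell within it under 4 of the other scalings.

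**Figure D3:**
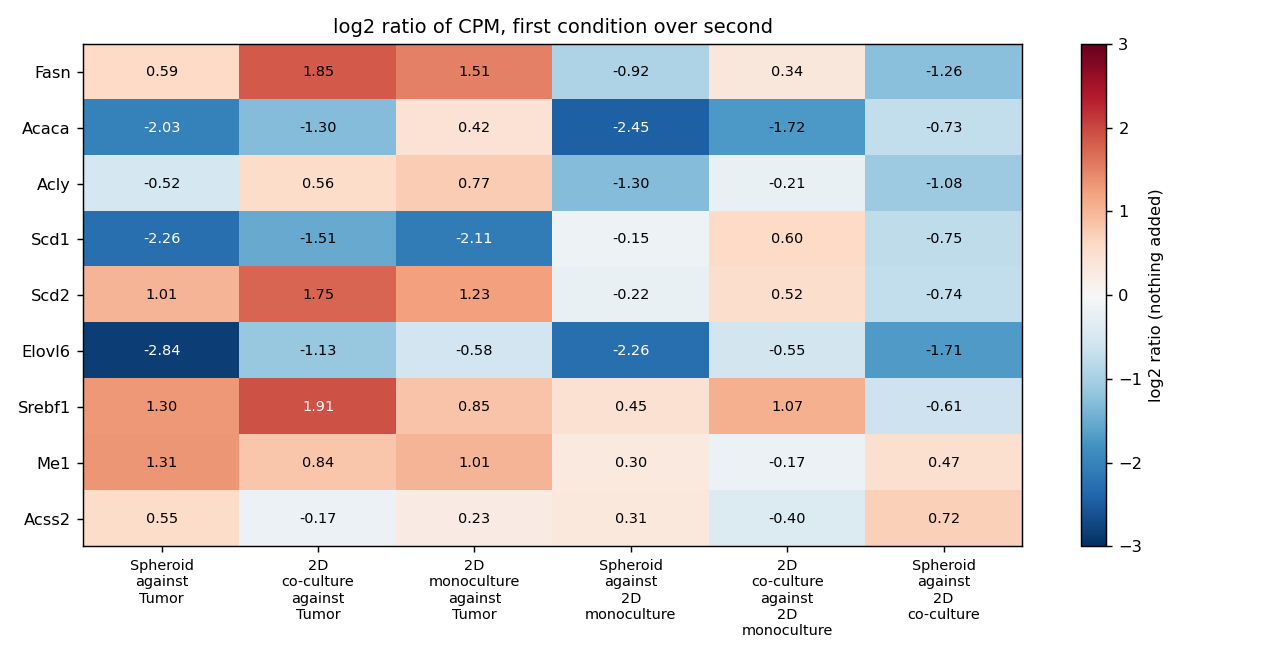
Log2 ratio of CPM, with nothing added, of the 9 genes (rows) in the 6 comparisons (columns; first condition over second). Red is higher and blue lower in the first condition; Scd1 is blue and Scd2 red in all 3 comparisons with Tumor, and Elovl6 in Spheroid against Tumor is the lowest value, -2.84.

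The culture nearest to Tumor differed by gene. Spheroid was nearest for Fasn, Acly and Scd2, 2D monoculture for Acaca, Elovl6 and Srebf1, and 2D co-culture for Scd1, Me1 and Acss2. No culture came within 2-fold of Tumor for Scd1 under any alternative. The assignment depended on the scaling for Acly and Acss2: with total counts, upper quartiles or TMM factors of filtered genes, 2D co-culture was nearest for Acly (0.28 to 0.42, against -0.88 to -0.65 for Spheroid) and 2D monoculture for Acss2 (-0.02 to 0.10), on the log2 scale with 1 CPM added.

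The ratios depended on the base composition of the transcripts. Over 12669 genes with a known sequence, Spearman's correlation between GC content and log2 ratio was 0.541 for Spheroid against Tumor, 0.468 for 2D co-culture against Tumor, 0.385 for 2D monoculture against Tumor, 0.483 for Spheroid against 2D monoculture, 0.402 for Spheroid against 2D co-culture and 0.212 for 2D co-culture against 2D monoculture. With transcript length it was -0.399 for Spheroid and -0.345 for 2D co-culture against 2D monoculture, and between -0.233 and 0.184 in the other 4 comparisons. These are descriptions across genes, which share libraries and are not replicates. The members span this range, from Elovl6 (44.0% GC) and Me1 (45.1%) to Fasn (57.9%) and Srebf1 (58.4%). When the median ratio of genes of like GC content and length was removed, Fasn in Spheroid against Tumor went from 0.59 to -0.69, Acly from -0.52 to -1.28, Elovl6 from -2.71 to -1.27 and Me1 from 1.30 to 1.96, all with 1 CPM added. Differences from Tumor that came to lie within 2-fold were those of Fasn in 2D co-culture (0.82) and 2D monoculture (0.28), Srebf1 (0.72) and Elovl6 (-0.39) in 2D co-culture, and Scd2 in 2D monoculture (0.74), besides that of Srebf1 in Spheroid. The median of the set against Tumor then became -0.69 for Spheroid, -0.15 for 2D co-culture and -0.31 for 2D monoculture. After this removal 2D monoculture was the culture nearest to Tumor for 7 of the 9 genes, with 2D co-culture nearest for Scd1 and Spheroid for Acss2. Ratios between genes of unlike GC content within a library, such as Fasn over Acaca, were not corrected. The cause of the GC relation was not tested.

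**Figure D4:**
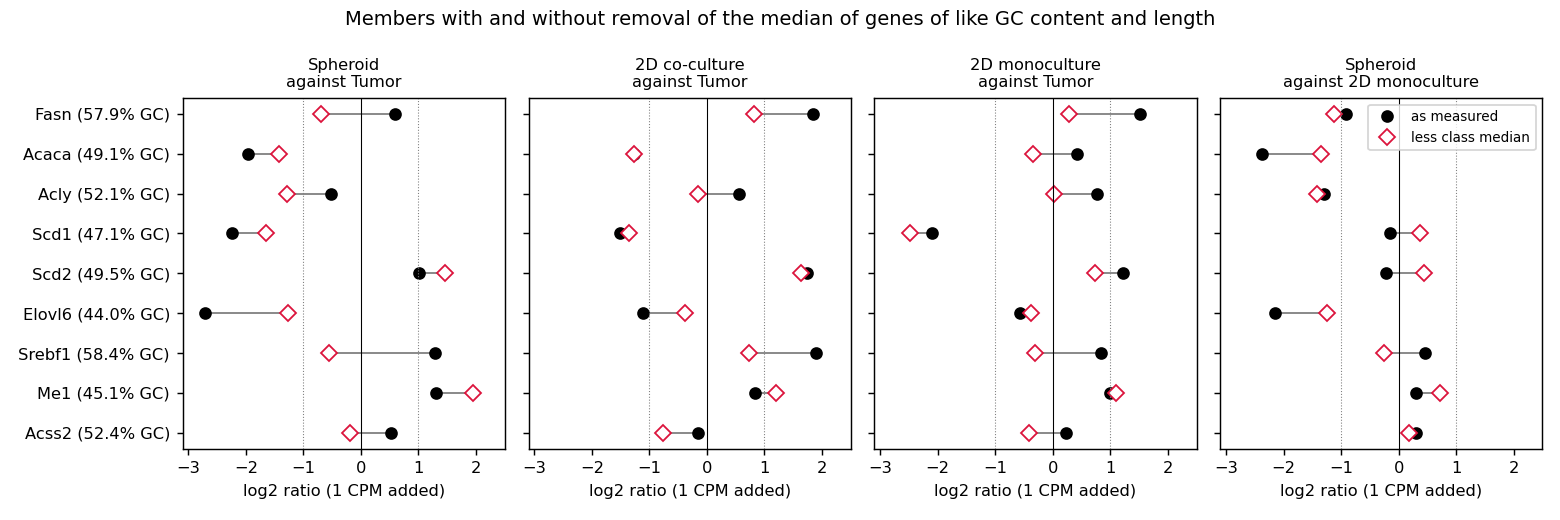
Log2 ratio with 1 CPM added (horizontal axis) of each gene, labelled with its GC content, in 4 comparisons. Filled circles are as measured, and open diamonds follow removal of the median ratio of genes of like GC content and length. Dotted lines mark 2-fold. Fasn, Srebf1 and Acss2 cross 0 in Spheroid against Tumor, whereas Acaca, Scd1 and Elovl6 stay past the lower line.

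Some members had profiles close to each other. The distance between 2 centred log2(CPM + 1) profiles over the 4 libraries was 0.503 for Scd2 and Srebf1, 0.515 for Fasn and Scd2, 0.756 for Me1 and Acss2 and 0.969 for Acaca and Elovl6, while Elovl6 and Srebf1 were the farthest apart, at 3.05. Among 9588 genes averaging 10 CPM or more, the nearest profile was that of Spen for Fasn (distance 0.0412), Rai14 for Acaca (0.0498), Top3a for Acly (0.0582), Ptpn6 for Scd1 (0.0954), Tcof1 for Scd2 (0.0812), Blm for Elovl6 (0.0630), Lrp8 for Srebf1 (0.133), N4bp1 for Me1 (0.0297) and Gnpnat1 for Acss2 (0.0704). Over 4 libraries many genes fall close to any profile. Ptpn6, a phosphatase of blood cells, had 46.4 CPM in Tumor and 9.51 to 15.3 CPM in the cultures.

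Promoter windows of RefSeq (GRCm38.p6), from 250 bases before to 50 bases after a start site, were found for 7 of the 9 members, in 10 windows. They were searched on both strands for motifs of factors known to act on lipogenic genes: the E-box CACGTG, the CCAAT box CCAAT, the GC box GGGCGG and the core of a sterol regulatory element, TCACNCCAC. Of all 32851 windows of the table, 7.15% held the E-box, 37.4% the CCAAT box, 35.7% the GC box and 1.24% the sterol element core. Fasn had 3 CCAAT matches and the Srebf1 window at the third listed start had 1 CCAAT and 2 GC box matches, whereas the windows of Acaca and Elovl6 had none of the 4 motifs. Acly, like Acaca and Elovl6 lowest in Spheroid, had 1 CCAAT and 4 GC box matches. For Scd1, also lowest in Spheroid, a window was not found. Whether motif counts go with levels was not tested. No member window held CACGTG or TCACNCCAC in these letters. The 4 windows are shown as examples with and without matches, with motif matches in capitals; in Fasn the capitals CCAATTGG hold overlapping matches on both strands.
Fasn, chr11:120824498-120824797, minus strand: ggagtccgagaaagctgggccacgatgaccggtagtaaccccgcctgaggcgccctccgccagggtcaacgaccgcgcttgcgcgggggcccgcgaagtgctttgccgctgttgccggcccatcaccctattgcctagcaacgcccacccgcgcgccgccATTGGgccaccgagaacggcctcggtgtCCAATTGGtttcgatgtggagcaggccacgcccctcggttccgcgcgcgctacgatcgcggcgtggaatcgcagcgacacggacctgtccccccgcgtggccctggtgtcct
Srebf1, chr11:60210422-60210721, minus strand: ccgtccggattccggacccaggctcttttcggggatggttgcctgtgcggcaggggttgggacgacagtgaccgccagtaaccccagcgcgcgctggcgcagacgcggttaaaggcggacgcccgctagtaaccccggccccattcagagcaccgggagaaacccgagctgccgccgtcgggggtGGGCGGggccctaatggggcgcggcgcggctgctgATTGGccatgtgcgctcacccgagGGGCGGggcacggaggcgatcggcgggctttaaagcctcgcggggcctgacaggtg
Acaca, chr11:84195188-84195487, plus strand: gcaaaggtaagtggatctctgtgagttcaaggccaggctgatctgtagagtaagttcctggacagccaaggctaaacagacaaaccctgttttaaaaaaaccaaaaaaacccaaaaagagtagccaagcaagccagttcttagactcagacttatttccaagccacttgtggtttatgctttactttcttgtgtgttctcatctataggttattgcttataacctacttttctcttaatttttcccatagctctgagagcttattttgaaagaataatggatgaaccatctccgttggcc
Elovl6, chr3:129532136-129532435, plus strand: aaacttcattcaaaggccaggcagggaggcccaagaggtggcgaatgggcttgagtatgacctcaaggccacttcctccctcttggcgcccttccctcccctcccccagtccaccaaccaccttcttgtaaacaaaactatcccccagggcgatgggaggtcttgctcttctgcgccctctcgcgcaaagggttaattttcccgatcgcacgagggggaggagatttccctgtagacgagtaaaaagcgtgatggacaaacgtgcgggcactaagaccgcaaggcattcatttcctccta
The Acaca window lies inside the gene, which is annotated from 84129672 to 84401651, and its GC content was 39.7%, against 69.3% in the Fasn window. The Srebf1 window also lies inside its gene (chr11:60199089-60222581). Windows of Acly, Me1 and Acss2 held 1 to 6 matches each. A match describes the letters of a window and does not show binding.

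The neighboring steps of lipid metabolism were read from lists of genes. Of 8 genes of acetyl-CoA, malonyl-CoA and citrate supply, 5 were over 2-fold higher in Spheroid than in Tumor and 1 was lower, and against 2D monoculture 2 were higher and 0 lower. Of all background genes, 26.8% were higher and 27.6% lower in the first comparison and 11.2% and 17.9% in the second. Among them Cs, the citrate synthase, had 505.5 CPM in 2D monoculture, 526 CPM in 2D co-culture, 638 CPM in Spheroid and 189 CPM in Tumor, and Slc25a1, which exports citrate to the cytosol, had 99.5, 85.1, 200.1 and 59.5 CPM in the same order. Spheroid was the highest library for both. The median log2 ratio of this list in Spheroid against Tumor was 1.55, and 0.05 after the correction for GC content and length. Acss1, the mitochondrial acetate enzyme, had 27.8 CPM in Spheroid and 2.67 CPM in 2D monoculture. Mcat, of mitochondrial fatty acid synthesis, was also highest in Spheroid (80.5 CPM), whereas Oxsm of the same route was lowest there (6.47 CPM against 14.7 CPM in Tumor).

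Of 8 genes listed for NADPH supply, 3 were over 2-fold lower in Spheroid than in 2D monoculture (G6pdx, Me2 and Mthfd1). Of these 8, 0 were higher, and the background shares were 17.9% lower and 11.2% higher. Against Tumor 3 were lower and 1 was higher, beside 27.6% and 26.8%. G6pdx, the entry of the pentose phosphate route, had 361 CPM in 2D monoculture, 163 CPM in 2D co-culture, 131 CPM in Spheroid and 90.4 CPM in Tumor. Pgd, the next NADPH-yielding enzyme of that route, had 480 CPM in 2D monoculture, 608 CPM in 2D co-culture, 460 CPM in Spheroid and 173 CPM in Tumor, and Mthfd1, of folate metabolism, had 104, 103, 23.7 and 61.8 CPM. Idh1 was highest in Tumor, with 164 CPM against 33.1 to 60.9 CPM in the cultures. Idh2 ranged from 186 CPM in 2D monoculture to 375 CPM in 2D co-culture, and Me3, a mitochondrial malic enzyme, had at most 8.06 CPM. So in CPM the suppliers of reducing power also followed different orders, with Spheroid the lowest library for Mthfd1 and Idh1 and Tumor the lowest for G6pdx and Pgd. With the GC and length correction, the log2 ratio of G6pdx in Spheroid against Tumor turned from 0.53 to -0.44. In that comparison Pgd went from 1.40 to 0.61, Mthfd1 from -1.35 to -2.06 and Idh1 from -2.27 to -1.40. The median of the list there went from 0.24 to -0.71.

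The 14 other elongases, desaturases and their partners had 5 genes over 2-fold higher and 3 lower in Spheroid than in Tumor, near the 26.8% and 27.6% of all background genes, and 1 higher and 1 lower than in 2D monoculture, beside 11.2% and 17.9%. Fads1 and Fads2, which desaturate polyunsaturated fatty acids, had the conditions in the same order of CPM as Srebf1: highest in 2D co-culture (276 and 260 CPM), then Spheroid and 2D monoculture, and lowest in Tumor (90.0 and 74.2 CPM). The GC and length correction did not keep this shared order. With it, Spheroid against Tumor was 0.44 for Fads1, 0.30 for Fads2 and -0.56 for Srebf1. Spheroid against 2D monoculture was then 0.48, -0.39 and -0.26. Tecr, which completes each elongation cycle, had 197 CPM in Spheroid against 9.37 CPM for Elovl6. It was 1.02 higher there on the log2 scale with 1 CPM added than in 2D monoculture. The GC and length correction reduced this difference to 0.46. Hsd17b12, of the same cycle, was highest in Tumor, with 257 CPM. The weakly expressed Fads3 (1.37 to 12.9 CPM) and Hacd4 (4.15 to 17.2 CPM) were also highest in Tumor.

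Among 15 regulators, 5 were over 2-fold higher and 4 lower in Spheroid than in Tumor, near the background of 26.8% and 27.6%, and 2 higher and 1 lower than in 2D monoculture, beside 11.2% and 17.9%. Srebf2, the regulator of sterol synthesis, had 274 CPM in 2D monoculture, 362 CPM in 2D co-culture, 574 CPM in Spheroid and 131 CPM in Tumor. Spheroid was the highest library for Srebf2, whereas 2D co-culture was for Srebf1. Its log2 ratio in Spheroid against Tumor was 2.13 and became 0.57 after the GC and length correction. Insig1, which holds SREBP proteins in the endoplasmic reticulum, had 187, 287, 354 and 323 CPM in the same order. Rxra and Mid1ip1, a nuclear receptor and an activator of the carboxylases, were highest in Spheroid too (213 and 239 CPM against 54.6 and 51.0 CPM in Tumor). With the GC and length correction, their log2 ratios in Spheroid against Tumor went from 1.94 to 0.39 and from 2.20 to 0.92. Fbxw7, which marks SREBP proteins for degradation, was lowest in Spheroid (7.78 CPM). Thrsp and Nr1h3, a lipogenic coactivator and a sterol receptor gene, both abundant in fat, liver or macrophages, were highest in Tumor, with 23.6 and 9.50 CPM against at most 4.37 and 0.576 CPM in the cultures.

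Of 14 genes of fatty acid uptake, binding and lipid droplets, 7 were over 2-fold lower than in Tumor in each of the 3 cultures, though not the same 7, where 27.6% of background genes were lower in Spheroid, 20.9% in 2D co-culture and 14.8% in 2D monoculture. The Tumor levels of these genes stand beside the marker levels given above. Against 2D monoculture, Spheroid had 3 of the 14 higher and 2 lower, beside 11.2% and 17.9% of background genes. Plin2, which coats lipid droplets, did not divide culture from Tumor: it had 293 CPM in 2D monoculture, 57.9 CPM in 2D co-culture, 40.4 CPM in Spheroid and 292 CPM in Tumor. Its conditions came in the same order as those of Acaca, with both cultures that held fibroblasts low. Fabp5, a fatty acid carrier, had 177 CPM in 2D monoculture, 516 CPM in 2D co-culture, 207 CPM in Spheroid and 466 CPM in Tumor. Plin3, another droplet coat, and Slc27a1, a fatty acid transporter, were highest in Spheroid, with 453 and 79.6 CPM. With the GC and length correction, their log2 ratios in Spheroid against Tumor went from 1.68 to 1.64 and from 1.33 to -0.35.

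**Figure D5:**
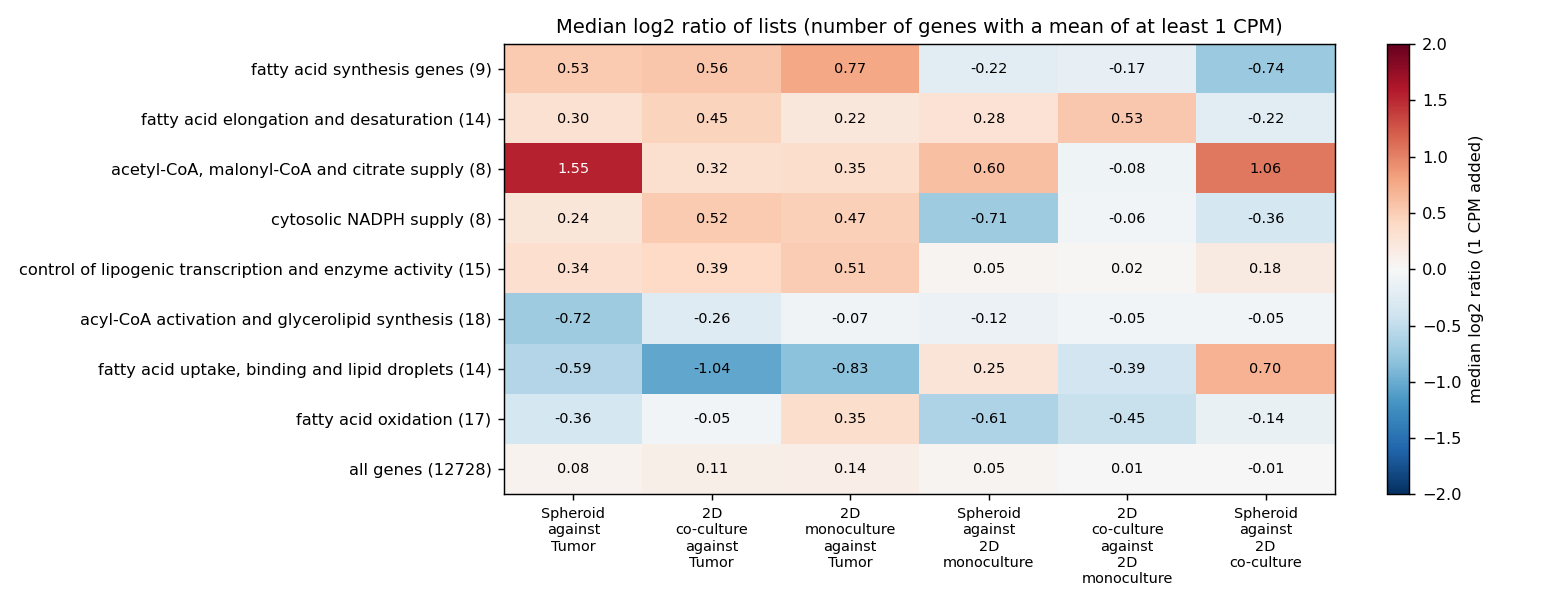
Median log2 ratio (1 CPM added) of each list of genes (rows, with the number of genes that averaged 1 CPM or more) in the 6 comparisons (columns; first condition over second). The uptake and droplet list is lowest against Tumor in 2D co-culture (-1.04), and the median of all 12728 genes lies between -0.01 and 0.14. The list labelled cytosolic NADPH supply also holds mitochondrial enzymes such as Me3.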

How the data were processed

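The authors deposited whole-number read counts per gene symbol for 4 libraries, 1 per condition, without normalization, and the file header names the refGene annotation. The submitters' processing notes list Trimmomatic, STAR, featureCounts and the build mm10, with no versions. Libraries were made from poly(A) RNA, and the strand setting of the counting was not stated.

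Counts were scaled to CPM with TMM factors of edgeR 4.0.16 in R 4.3.3 (factors 0.908 to 1.16). DESeq2 1.42.0 size factors, total counts, upper quartiles, TMM after removal of genes under 1 CPM, a pseudocount of 0.1 CPM, a limit of 1.5-fold and removal of the median ratio in 10 classes of GC content by 10 of length were alternatives. Transcript lengths and GC content came from GENCODE M21 and matched 99.5% of the background genes and all 9 members. Ratios of single genes have nothing added, with exact binomial intervals. Counts past 2-fold, medians of lists and values after the GC and length removal use log2(CPM + 1). Levels have Clopper-Pearson intervals. Other steps used Python 3.11.15, numpy 2.4.6, pandas 2.3.3, scipy 1.17.1 and matplotlib 3.10.9. The ratio step and the 2-fold limit were tested on simulated counts, and the GC and length class step was not. With 1 library per condition no test was run, and NOISeq and GFOLD, which the study used, were not run.

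The genes named are the 9 members, the 3 most abundant genes of each pathway list with the extremes of its ratios in Spheroid against Tumor and against 2D monoculture, and the nearest profile of each member (the rule took 2, of which the second is not reported here). Genes that overlap a member, the other Scd paralogs, cell type markers and Me2 were named besides. The members and lists were chosen with earlier results of these data known.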

Additional observations from a re-analysis of the deposited data

How the results depend on the processing

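No paired analysis was possible because only 1 library stands for a condition. Without replicates, no comparison has a measure of the spread between samples. All 54 member ratios kept their sign with DESeq2 size factors, with TMM after removal of genes under 1 CPM and with a pseudocount of 0.1 CPM, and 53 with total counts or upper quartiles, where Acss2 in 2D monoculture against Tumor became -0.01 and -0.02. The GC and length correction kept the sign of 44 and changed 10 calls: Srebf1 in Spheroid against Tumor reversed to -0.56, and the medians of the set against Tumor became -0.69 for Spheroid, -0.15 for 2D co-culture and -0.31 for 2D monoculture. The number of members over 2-fold higher in Spheroid than in Tumor fell to 0 with total counts, beside 19.4% of background genes. In 2D monoculture against Tumor it became 1 with total counts, 1 with upper quartiles and 1 with the GC and length correction. The shares of all genes higher there were 12.4%, 12.1% and 5.61%. At a limit of 1.5-fold, 5 members were higher in that comparison, beside 32.3% of background genes. At 1.5-fold, 2 members were higher in 2D co-culture than in 2D monoculture, beside 12.6% of background genes. In Spheroid against 2D co-culture 1 was higher and 7 were lower at that limit, beside 20.0% and 20.2%. Total counts moved the median of all genes by -0.33 for Spheroid, -0.25 for 2D co-culture and -0.22 for 2D monoculture against Tumor, and upper quartiles by -0.12, -0.12 and -0.23. The share of higher genes among all genes past 2-fold was then 36.7%, 32.6% and 40.1% with total counts, against 49.2%, 47.3% and 55.2%. With upper quartiles it was 39.5% for 2D monoculture against Tumor and 39.0% (from 28.5%) for 2D co-culture against 2D monoculture. With the GC and length correction it was 31.4% for 2D co-culture and 26.2% for 2D monoculture against Tumor. The cause of these shifts was not tested.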

Other observations

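Genes that consume fatty acids were also read. Of 17 genes of fatty acid oxidation, 4 were over 2-fold lower in Spheroid than in 2D monoculture and 1 was higher, beside 17.9% and 11.2% of all background genes. Cpt1a, which admits fatty acids to mitochondria, had 67.9 CPM in 2D monoculture, 35.0 CPM in 2D co-culture, 11.0 CPM in Spheroid and 33.7 CPM in Tumor. Cpt1c, the brain-type member of that family, went the other way, with 72.6, 49.4, 161 and 12.4 CPM in the same order. With the GC and length correction, the log2 ratio of Cpt1c in Spheroid against 2D monoculture went from 1.14 to 0.51. That of Cpt1a stayed at -2.52. Hadha, of the mitochondrial trifunctional protein, had 344 CPM in 2D monoculture, 182 CPM in 2D co-culture, 86.0 CPM in Spheroid and 269 CPM in Tumor. Acadm, an acyl-CoA dehydrogenase, had 12.9 CPM in Spheroid and 71.0 CPM in Tumor, whereas its relatives Acadl and Acadvl had 176 and 181 CPM in Spheroid and 105 and 88.4 CPM in Tumor. Spheroid was thus the lowest library for Cpt1a, Hadha and Acadm and the highest for Cpt1c.

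Of 18 genes of acyl-CoA activation and glycerolipid synthesis, 6 were over 2-fold lower in Spheroid than in 2D monoculture and 2 were higher, beside the same 17.9% and 11.2%. Acsl3 and Acsl5, which activate fatty acids, had 32.0 and 24.8 CPM in Spheroid, against 103 and 90.0 CPM in 2D monoculture and 188 and 94.0 CPM in Tumor. Dgat1, which completes triglycerides, had 172 CPM in Spheroid and 63.2 CPM in 2D monoculture. Agpat1 and Agpat3, which acylate lysophosphatidic acid, were highest in Spheroid, with 287 and 339 CPM against 61.6 and 88.7 CPM in Tumor. With the GC and length correction, the log2 ratio of Dgat1 in Spheroid against 2D monoculture went from 1.43 to 0.81. Against Tumor, that of Agpat1 in Spheroid went from 2.20 to 0.61 and that of Agpat3 from 1.92 to 1.08. Gpat4, which starts glycerolipid synthesis, ranged from 88.1 CPM in Tumor to 157 CPM in 2D co-culture.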
